A study of Mus musculus with 8 samples.

Results

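Caveolins and cavins build caveolae, the flask-shaped pits of the plasma membrane, and the Popeye proteins are membrane proteins that bind cyclic AMP. The genes described here are the 3 caveolins (Cav1, Cav2, Cav3), the 4 cavins (Cavin1, Cavin2, Cavin3, Cavin4) and the 3 Popeye genes (Popdc2, Popdc3 and Bves, also called Popdc1). They were chosen by gene name, and all 10 were found among the 17911 genes of the deposited table. Following general knowledge of where they are expressed, 5 were grouped as muscle-type (Cav3, Cavin4, Popdc2, Popdc3, Bves) and 5 as endothelial-type (Cav1, Cav2, Cavin1, Cavin2, Cavin3), although Cavin1 is also made in muscle. The study sequenced RNA from whole hearts of wild-type C57Bl6/J mice, 4 female and 4 male, with no treatment. The labels call the mice adult and give an age of 4 to 6 weeks in one place and 4 weeks in another. Each library came from the heart of 1 mouse, and all 8 carry the same batch label. The male hearts are numbered 1, 3, 4 and 5 in the labels and the female hearts 1 to 4.

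Caveolins insert into the inner leaflet of the membrane as oligomers, and cavins form a coat around them. Cav1 and Cav2 are abundant in endothelial cells, adipocytes and fibroblasts, whereas Cav3 and Cavin4 are the versions of striated muscle, where they lie at the surface membrane and at forming transverse tubules. Cavin1 is required for caveola formation in all these cells. In the heart, Popeye proteins act in pacemaking and conduction and bind the potassium channel encoded by Kcnk2.

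The promoters of 5 members are shown because, over the 8 hearts, the 6 pairs among Cav1, Cav2, Cavin2 and the muscle gene Cavin4 had positive correlations, 3 of them past the adjusted threshold, whereas the other muscle caveola gene, Cav3, had r from -0.24 to 0.01 with the same 4 genes. RefSeq start sites of GRCm38.p6 were found for 7 of the 10 members. Each sequence is the 120 bases before the start, 5′ to 3′ on the gene's own strand, for members with no annotated exon in that stretch. Cav1 has 2 starts, and the stretch of the first is printed. Capitals mark E-boxes (CANNTG, the core bound by helix-loop-helix factors) and, in Cavin4, a TATA motif (TATAAA). The positions are chr6:112459385-112459504 for Cav3, chr4:48663394-48663513 for Cavin4, chr6:17306215-17306334 for Cav1, chr6:17281065-17281184 for Cav2 and chr1:51289006-51289125 for Cavin2, all on the forward strand.
Cav3: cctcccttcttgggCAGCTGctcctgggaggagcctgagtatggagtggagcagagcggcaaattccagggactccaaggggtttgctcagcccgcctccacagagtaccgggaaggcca
Cavin4: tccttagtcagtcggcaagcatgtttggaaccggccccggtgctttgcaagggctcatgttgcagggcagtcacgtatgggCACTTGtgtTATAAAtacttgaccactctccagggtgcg
Cav1: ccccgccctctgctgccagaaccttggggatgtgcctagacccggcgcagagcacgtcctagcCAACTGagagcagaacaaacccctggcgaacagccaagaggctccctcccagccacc
Cav2: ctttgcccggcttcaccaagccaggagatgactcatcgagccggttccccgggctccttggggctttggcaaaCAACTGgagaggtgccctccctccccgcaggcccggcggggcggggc
Cavin2: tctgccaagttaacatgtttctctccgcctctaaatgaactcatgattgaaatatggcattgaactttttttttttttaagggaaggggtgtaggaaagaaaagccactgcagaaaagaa

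Counting back from the start site as position -1, the Cavin4 promoter holds an E-box from -39 to -34 and the TATA motif from -30 to -25 on the gene's strand. The printed stretches of Cav1 and Cav2 hold an E-box with the same 6 letters, at -57 to -52 and at -47 to -42, and the printed E-box of Cav3 is at -106 to -101. The 120 bases before the second Cav1 start (chr6:17307520-17307639), also without an annotated exon, hold no E-box. The only E-box in the 250 bases before that start is CAGGTG at -158 to -153. The printed stretch of Cavin2 holds no match to any motif searched, nor do its 250 bases before the start. The motifs were searched on both strands of 250 bases before each start and were picked after the expression values were known. An E-box was present in 66.2% of all 32851 promoter windows of that length and the TATA motif in 12.4%, so these matches are a description only. The other motifs searched were the CArG box (in 1.47% of windows), the MEF2 site (2.92%) and the M-CAT motif spelled CATTCC (12.6%). A core bound by ETS factors, spelled CCGGAA (12.0% of windows), and a site of GATA factors, spelled AGATAA (9.99%), were searched as well. Popdc2 had matches to M-CAT (-18 to -13, sharing 1 base with an E-box), ETS and GATA, and Cavin1 had matches to M-CAT. Cav1 had a TATA match outside the printed stretch (-221 to -216, opposite strand). None of the 7 members with a start site had a CArG box or MEF2 match. Popdc3, Bves and Cavin3 had no window and were not searched.

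The caveolin genes Cav2 (ENSMUSG00000000058, chr6:17281185-17289115) and Cav1 (ENSMUSG00000007655, chr6:17306335-17341452) are neighbours on the forward strand in GRCm38, 17.2 kb apart. Cav3 (ENSMUSG00000062694, chr6:112459505-112472872) lies on the same chromosome, far from both. The Popeye genes Popdc3 (ENSMUSG00000019848, chr10:45178098-45318452) and Bves (ENSMUSG00000071317, chr10:45335772-45372479) also lie side by side, 17.3 kb apart, while Popdc2 (ENSMUSG00000022803) is at chr16:38362209-38378216. The cavins are dispersed. Cavin1 (ENSMUSG00000004044) is at chr11:100956733-100970887 and Cavin3 (ENSMUSG00000037060) at chr7:105480083-105482300, both on the reverse strand. Cavin2 (ENSMUSG00000045954) is at chr1:51289126-51302960 and Cavin4 (ENSMUSG00000028348) at chr4:48663514-48673502. Exons of Popdc3 share 120 bases with Gm15934, a measured gene on the opposite strand with means of 14.0 normalized reads in females and 13.0 in males. Cavin3 shares 374 exon bases with Gm45667 on the opposite strand and Popdc2 shares 89 with Gm21987 on its own strand. Whether the authors' counting used strand is not given in the sources used here.

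Values are the authors' normalized read counts, that is, reads per gene divided by 1 size factor per heart. Whole reads could be recovered from them and gave 51.7 to 66.3 M reads in genes per female heart and 55.0 to 75.7 M per male heart. The labels state over 80 M reads per sample, and name total RNA as the molecule beside an extraction kit for small RNA. The sex labels held in every heart, with Xist at 14056 to 14867 in females against 207 to 254 in males, and Ddx3y at 4.85 to 82.8 against 5715 to 6111. All 10 cardiomyocyte markers and all 11 endothelial markers were measured. Summed lung markers (4 of 6 measured) were 1319 in male heart 3 and 53.1 to 132 elsewhere, and summed adipocyte markers (6 of 6 measured) were 12053 in female heart 1 and 1959 to 4825 elsewhere. The skeletal muscle list had 3 of 6 markers in the table, at a sum of 174.5 to 318 in females and 237.5 to 294 in males; Myh1, Myh2 and Myh4, which define fast muscle fibres, were not among them.

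Per kilobase of annotated exon, Popdc2 was the most abundant member and Cavin3 the least. Popdc2 stood at 13172 ± 393 normalized reads per kb (SD, n = 8 hearts), 2.84 times the next member, and its lowest heart (12527) was above the highest of Cavin1 (4812). Cavin1 (4638 ± 169), Cav1 (4335 ± 255), Cavin2 (3714 ± 193) and Cavin4 (3492 ± 197) followed. Neighbours among these 4 overlapped in range over hearts, although their order was the same within each of the 8 hearts. Cav3 came next at 2728 ± 148 per kb, below Cavin4 with no overlap (2557 to 2958 against 3212 to 3716).

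Cav2, the partner of Cav1, was at 998 ± 64.5 per kb and Bves at 941 ± 64.2; these 2 overlapped, and Cav2 was the higher in 5 of 8 hearts. Popdc3 was at 705 ± 46.5 per kb, below Bves without overlap. Cavin3 was at 641 ± 47.0 per kb, overlapping Popdc3 in range but lower in each of the 8 hearts. The order depends on the exon length used in 1 place: with the exons of the basic annotation, Cav1 (4831 per kb) was above Cavin1 (4766 per kb).

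**Figure D1:**
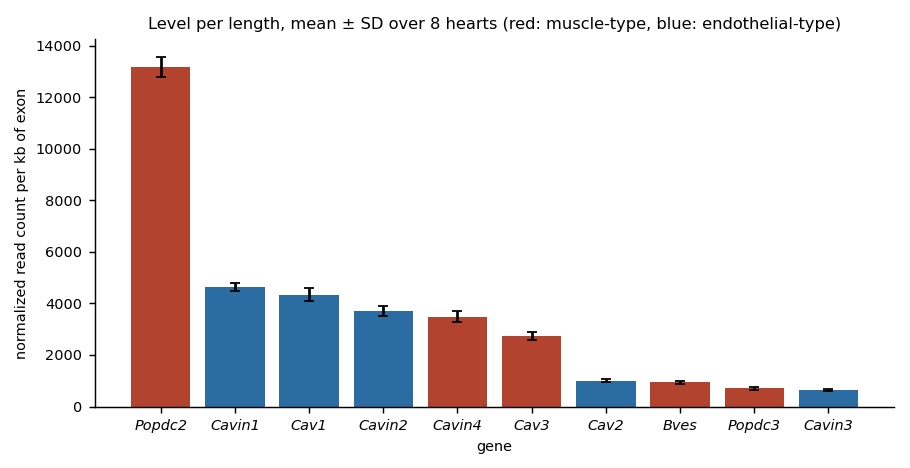
Level of each member per kilobase of annotated exon, in normalized reads per kb, on a linear axis from 0; bars are means and error bars the SD over the 8 hearts, with muscle-type members in red and endothelial-type members in blue. Popdc2 (13172) stands above all other members, and Cav2, Bves, Popdc3 and Cavin3 have means of 998 or less.

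Within families, 1 gene supplied most of the Popeye transcripts, while the caveolins and cavins were shared more evenly. Per exon length, Popdc2 made up 88.9% ± 0.41 of the Popeye signal (SD, n = 8), Bves 6.34% ± 0.31 and Popdc3 4.76% ± 0.36. Of the caveolin signal, Cav1 made up 53.8% ± 1.46, Cav3 33.9% ± 1.81 and Cav2 12.4% ± 0.46. Of the cavin signal, Cavin1 made up 37.2% ± 0.82, Cavin2 29.7% ± 0.71, Cavin4 28.0% ± 0.56 and Cavin3 5.14% ± 0.26.
Some shares were nearly equal between the sexes and others less so. Cav3 was 34.6% ± 1.95 of caveolins in the 4 females and 33.2% ± 1.6 in the 4 males (SD), and Cavin4 was 27.7% ± 0.36 of cavins in females and 28.2% ± 0.66 in males. Among the Popeye genes, Bves was 6.54% ± 0.21 in females and 6.15% ± 0.28 in males, and Popdc3 was 4.55% ± 0.16 in females and 4.98% ± 0.39 in males. Cav2 was 12.1% ± 0.43 of caveolins in females and 12.6% ± 0.39 in males. The sex differences of Bves, Popdc3 and Cav2 were larger than the SD of either sex, and these shares were not tested.

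None of the 10 members differed between female and male hearts past the threshold, and the hearts of the 2 sexes overlapped for all 10. In limma with Benjamini-Hochberg adjustment over all 17911 genes, 0 of 10 members had an adjusted p under 0.05, against a background of 1.16% of genes called (208 of 17911). At an unadjusted p under 0.05, 3 of 10 members passed (Cav1 and Cav2 with lower values in females and Bves with higher), beside 16% of all genes (8.16% lower and 7.84% higher in females). The share of all genes whose hearts did not overlap between sexes was 9.35%. On the recovered reads, edgeR called 0 of the 10 (background 1.19%, 214 genes), limma-voom 0 (1.16%) and DESeq2 0 (4.9% of 14088 genes given an adjusted p). By the adjusted p of the authors' deposited table, 0 of the 10 passed 0.05, with 690 genes (4.9%) called. DESeq2 on the recovered reads called the same number, 690 of 14088 genes. Cav2 had a log2 difference of -0.1355 in both, so the deposited result is not a test separate from DESeq2. The precision differed by gene: the 95% interval of the difference was -2.44% to 7.76% for Popdc2 and -6.36% to 5.08% for Cavin1, and -11.5% to 8.08% for Cavin3.

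Cav3, the muscle caveolin, read 2958, 3057, 3102 and 3423 in female hearts 1 to 4 and 3041, 3029, 3327 and 3315 in male hearts 1, 3, 4 and 5. The highest and the lowest heart were both female. The means were 3135 ± 201 and 3178 ± 165 (SD, n = 4 each), a log2 difference of -0.02 (SE 0.05, limma adjusted p = 0.888), and the sign changed when any of 3 hearts was left out.

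Cavin4, the muscle cavin, read 7033, 7310, 6597 and 7052 in females against 7588, 7633, 7506 and 6655 in males. Of the male hearts, 3 were above all females, and male heart 5 stood with the lowest female. The log2 difference was -0.07 (SE 0.05, limma adjusted p = 0.524).

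Popdc2, the most abundant Popeye gene, was the steadiest member, with a coefficient of variation of 2.99% over the 8 hearts. It read 31666, 31261, 32444 and 30522 in females and 30364, 31890, 29563 and 30984 in males. The sexes were interleaved, and the log2 difference was 0.04 (SE 0.03, limma adjusted p = 0.648).

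Popdc3 read 1459, 1455, 1380 and 1385 in females and 1571, 1606, 1547 and 1345 in males. As for Cavin4, 3 male hearts were above all females and male heart 5 was below them. The log2 difference was -0.09 (SE 0.05, limma adjusted p = 0.444).

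Bves had the largest difference among the members with higher female values. It read 4511, 4690, 4462 and 4411 in females and 4149, 4592, 3832 and 4050 in males. Male heart 3 lay above 3 of the 4 females, and the other 3 males lay below every female. The means were 4519 ± 122 and 4156 ± 319 (SD, n = 4 each), a difference of 8.94% (95% interval 1.26% to 17.2%, log2 0.12, SE 0.05, limma adjusted p = 0.242).

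**Figure D2:**
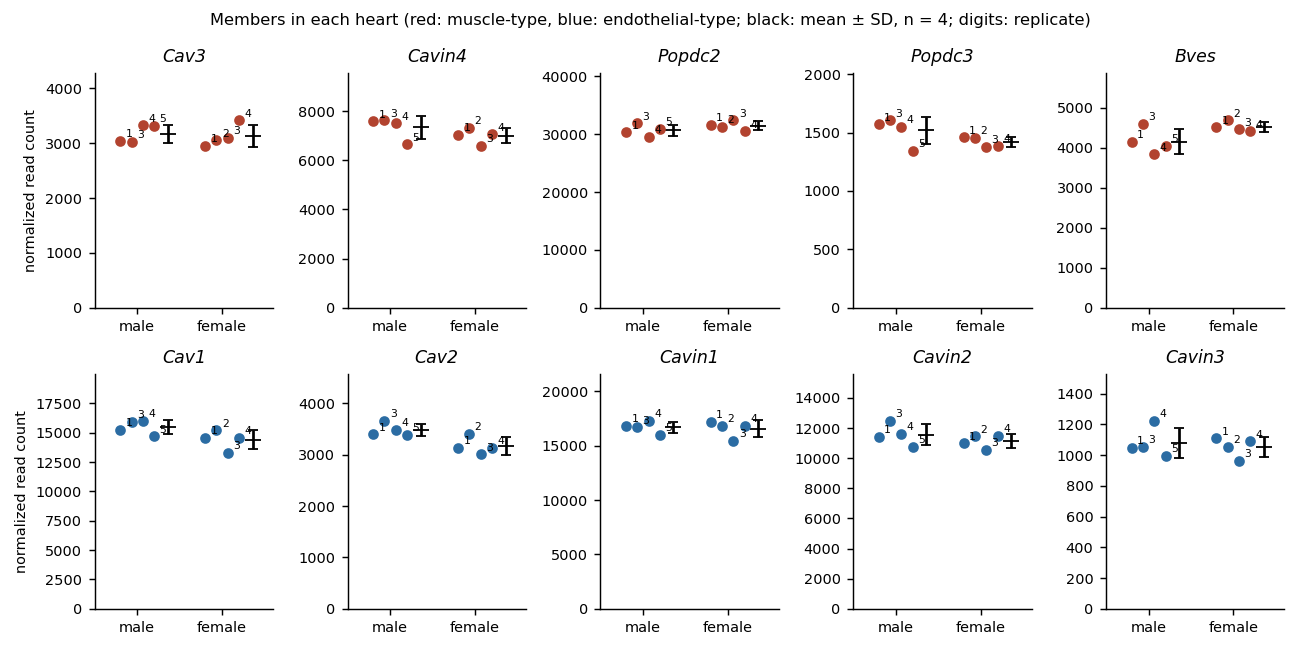
Normalized read count of each member (vertical axes from 0) in the 4 male and 4 female hearts, 1 point per heart with its replicate number, and the mean ± SD of each sex in black; muscle-type members are red and endothelial-type members blue. The points of the sexes overlap in all 10 panels, and male heart 5 lies apart from the other males for Cavin4 (6655) and Popdc3 (1345).

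Among the endothelial-type members, Cav1 and Cav2 had the lowest female values relative to males. Cav1, the caveolin of endothelial caveolae, read 14583, 15203, 13261 and 14542 in females and 15236, 15924, 15984 and 14693 in males. Female heart 2 was within the male range, and the other 3 females lay below every male. The difference was -6.93% (95% interval -12.9% to -0.60%, log2 -0.10, SE 0.04, limma adjusted p = 0.272).

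Cav2, which needs Cav1 to reach the cell surface, read 3132, 3406, 3009 and 3136 in females and 3398, 3655, 3486 and 3392 in males. Again female heart 2 was within the male range and the other 3 were below every male. The means were 3171 ± 168 and 3483 ± 123 (SD, n = 4 each), a difference of -9.01% (95% interval -14.6% to -3.08%, log2 -0.14, SE 0.04, limma adjusted p = 0.143), which was the smallest adjusted p of the 10. In the authors' deposited table, as in DESeq2 on the recovered reads, the adjusted p of Cav2 was 0.0866.

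Cavin1, the cavin needed for caveolae in all cell types, read 17197, 16836, 15455 and 16804 in females and 16844, 16673, 17259 and 16024 in males. Female heart 3 was the lowest heart, and without it the sign of the log2 difference changed from -0.01 to 0.02. Cavin2, abundant in endothelium, read 10988, 11461, 10560 and 11502 in females and 11418, 12461, 11619 and 10769 in males, with the sexes interleaved (log2 difference -0.05, SE 0.04, limma adjusted p = 0.600). Cavin3 was the most variable member, with a coefficient of variation of 7.32%. It read 1108, 1055, 962.5 and 1089 in females and 1049, 1052, 1221 and 994 in males, with the sexes interleaved and male heart 4 the highest (log2 difference -0.03, SE 0.07, limma adjusted p = 0.865).

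By type, 3 of 5 muscle-type members and 5 of 5 endothelial-type members had a lower mean log2 value in females. The median log2 difference was -0.02 for the muscle-type and -0.05 for the endothelial-type members, beside 0.00229 over all genes, of which 49.1% were negative. The median size of the difference was 0.06 over the 10 members and 0.05 over the 7682 genes with a mean of at least 900. The members varied somewhat more between hearts of 1 sex than genes of that level did (median SD 0.08 against 0.06 on the log2 scale).

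**Figure D3:**
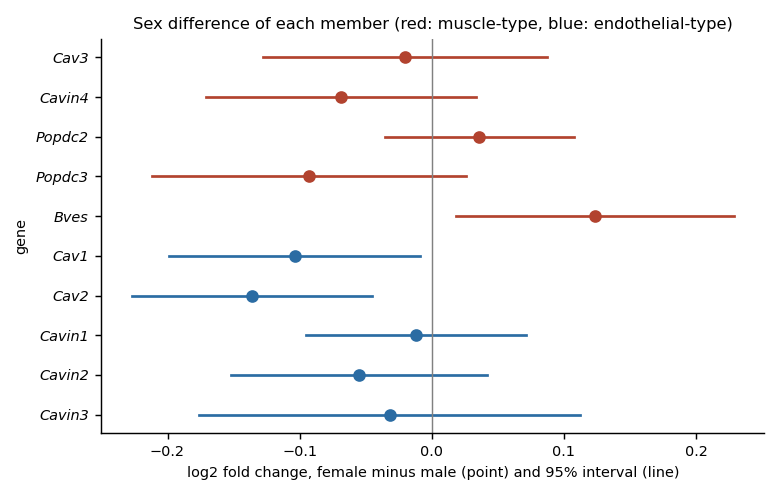
Log2 fold change of each member, female minus male (point), with its 95% interval (line) on the horizontal axis, muscle-type members in red and endothelial-type members in blue. The intervals of 7 members include 0; those of Cav1, Cav2 and Bves do not before adjustment for the 17911 genes tested.

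Muscle and endothelial members of the same family were then compared within each heart, where the size factor cancels. The ratio of Cav3 to Cav1 in normalized counts, not corrected for length, was 0.203, 0.201, 0.234 and 0.235 in females and 0.200, 0.190, 0.208 and 0.226 in males. The sexes overlapped, and the highest values were in female hearts 3 and 4. The log2 difference was 0.08 (means 0.218 ± 0.0189 and 0.206 ± 0.0150, SD, n = 4 each; two-sided exact permutation p = 0.257, adjusted 0.514 over the 2 ratios). It was 0.0457 without female heart 4, 0.0461 without male heart 3, 0.0488 without female heart 3 and 0.128 without male heart 5. The ratio of Cavin4 to Cavin2 was 0.629 ± 0.0125 in female and 0.635 ± 0.0244 in male hearts (SD, n = 4 each). Its log2 difference was -0.01 (two-sided exact permutation p = 0.686, adjusted 0.686), with a range of 0.613 to 0.640 in females inside that of 0.613 to 0.665 in males. The smallest p that the 70 assignments of hearts allow is 0.0286.

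Over the 8 hearts, the endothelial-type members had positive correlations with each other and the muscle-type members as a group did not. Pearson's r of log2(value + 1) was computed for the 45 pairs of members. In a check, r was taken without the 2 hearts farthest from the median of the first-named gene of the pair. Leaving these out also narrows the range of that gene, which can change r by itself. All 10 pairs of endothelial-type members had a positive r (median 0.69, from 0.30 to 0.90), whereas 2 of the 10 muscle-type pairs did (median -0.24, from -0.58 to 0.93). Among the 25 pairs of 1 muscle-type and 1 endothelial-type member, 13 were positive (median 0.01, from -0.71 to 0.86). After a line on log2 total reads was taken out, 6 of 10 muscle-type pairs were positive (median 0.03). The endothelial-type pairs then had a median of 0.59 (from 0.06 to 0.85), and the pairs between types 0.31. With values centred on each sex, 4 muscle-type pairs were positive (median -0.16), and the median between types was 0.26. Genes in the same library share its composition and size factor, so these are correlations over 8 shared libraries.

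Of the muscle genes, Cavin4 passed the adjusted threshold with Popdc3, Cavin2 and Cav1. The pair with the highest r was Cavin4 with Popdc3 (r = 0.93, exact permutation p = 0.00179, adjusted 0.0349; rho = 0.905, exact permutation p = 0.00456, adjusted 0.103), with r = 0.92 without the 2 hearts farthest from the median. Within sexes r was 0.694 in females and 0.996 in males, with 4 hearts each. Cavin4 also had r = 0.86 with Cavin2 (exact permutation p = 0.0031, adjusted 0.0349; rho = 0.833, exact permutation p = 0.0154, adjusted 0.115) and 0.68 without the 2 farthest hearts. With Cav1 it had r = 0.86 (exact permutation p = 0.00285, adjusted 0.0349; rho = 0.833, exact permutation p = 0.0154, adjusted 0.115) and 0.88 without the 2 farthest hearts. Within sexes, Cavin4 and Cav1 had r = 0.997 in females and 0.819 in males, and Cavin4 and Cavin2 had 0.89 and 0.82. The other pairs of Cavin4 or Popdc3 with an endothelial-type member had a positive r that did not pass (adjusted exact permutation p from 0.127 to 0.443). Without the 2 farthest hearts, Cavin4 with Cavin1 went from r = 0.73 to -0.27, and Cavin4 with Cavin3 from 0.59 to -0.07. These 2 values depended on including those hearts.

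Of the endothelial-type pairs, the neighbours Cav1 and Cav2 had the highest r (0.90, exact permutation p = 0.00124, adjusted 0.0349; rho = 0.929, exact permutation p = 0.00223, adjusted 0.10). It was 0.91 without the 2 farthest hearts, 0.88 in females and 0.76 in males. Cavin1 with Cavin3 had r = 0.87 (exact permutation p = 0.00441, adjusted 0.0397; rho = 0.833, exact permutation p = 0.0154, adjusted 0.115), 0.83 without the 2 farthest hearts, and 0.97 in females and 0.88 in males. The lowest endothelial-type r was that of Cav2 with Cavin3 (0.30, exact permutation p = 0.476, adjusted 0.691; rho = 0.286, exact permutation p = 0.501, adjusted 0.727), and it was 0.04 without the 2 farthest hearts. In the same check 3 endothelial-type pairs turned negative: Cavin1 with Cavin2 (0.57 to -0.59), Cav1 with Cavin3 (0.65 to -0.22) and Cav1 with Cavin1 (0.73 to -0.00737).

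No pair of Cav3, Popdc2 or Bves with an endothelial-type member passed the adjusted threshold. Cav3 had r between -0.07 and 0.23 with the 5 endothelial-type members and below 0 with each other muscle-type member. After a line on log2 total reads was taken out, its r with those 5 was 0.23 to 0.61. Its lowest r, with Popdc2, was also the lowest among muscle-type pairs (-0.58, exact permutation p = 0.13, adjusted 0.301; rho = -0.50, exact permutation p = 0.216, adjusted 0.512), and -0.20 without the 2 farthest hearts. Popdc2 had its highest r with Bves (0.75, exact permutation p = 0.0317, adjusted 0.131; rho = 0.714, exact permutation p = 0.0576, adjusted 0.284). That value was 0.62 without the 2 farthest hearts, 0.05 in females and 0.91 in males. The lowest r between types was Popdc2 with Cavin3 (-0.71, exact permutation p = 0.0478, adjusted 0.155). Its rho was -0.45 (exact permutation p = 0.267, adjusted 0.547). Without the 2 farthest hearts r was 0.15, so the negative r depended on including those hearts.
The neighbours Popdc3 and Bves had r = -0.07 (exact permutation p = 0.87, adjusted 0.931; rho = 0.167, exact permutation p = 0.703, adjusted 0.879), although within each sex r was positive (0.76 in females, 0.39 in males). Without the 2 farthest hearts it was -0.67. Bves also had r = -0.22 with Cav2 and 0.14 with Cavin2 over all hearts, but 0.60 and 0.57 with values centred on each sex. Within sexes, Bves and Cav2 had 0.87 in females and 0.69 in males, with 4 hearts each.

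**Figure D4:**
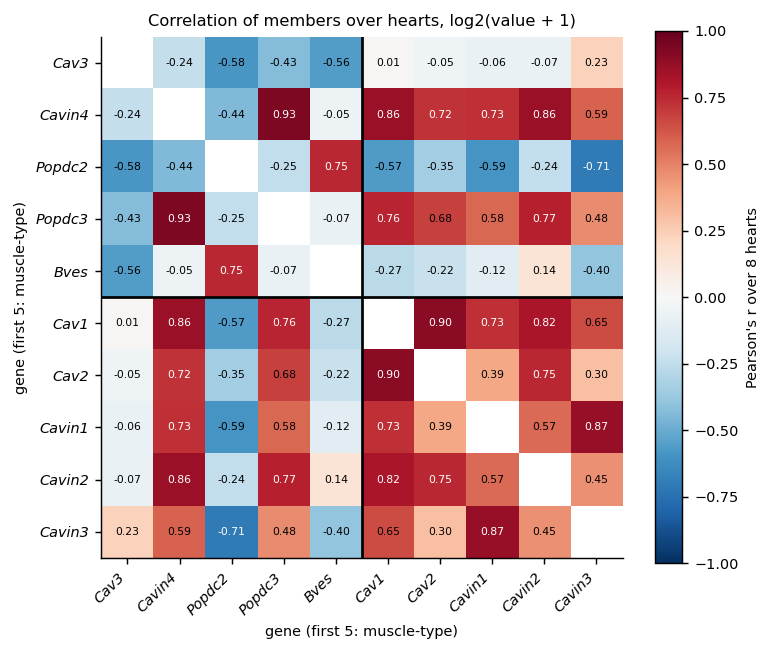
Pearson's r of log2(value + 1) over the 8 hearts for each pair of the 10 members (colour and number), with black lines between the 5 muscle-type members and the 5 endothelial-type members. Cavin4 and Popdc3 have positive r with all 5 endothelial-type members, from 0.48 to 0.86, whereas Popdc2 has negative r with all 5.

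In all, 5 of 45 pairs had an adjusted p under 0.05 for r and 0 for rho. Before adjustment, 2 muscle-type pairs, 5 endothelial-type pairs and 7 pairs between types had p under 0.05 for r. The 5 calls rest on all 8 hearts together: with values centred on each sex 0 pairs passed, and leaving out 1 heart left 0 pairs in 6 cases, 1 pair without male heart 3 and 4 pairs without female heart 4. Centred on each sex, all 10 endothelial-type pairs kept a positive r (median 0.74), Cavin4 with Popdc3 had 0.91, Cavin4 with Cav1 0.84 and Cavin4 with Cavin2 0.84. Without female heart 3, the lowest heart for each of the 5 endothelial-type members, their median r fell to 0.34. No share of other gene pairs is given beside these counts, so they are not shown to be particular to the members. Among 11936 genes with a mean of at least 100, ranked by r with Cavin4, Cavin2 held place 144 and Cav1 place 146.

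The summed endothelial markers (Pecam1, Cdh5, Kdr and 8 others) moved with several of these genes. This relation was looked at after the correlations between members were known, for 10 members against the endothelial and the cardiomyocyte sum, 20 relations in all. The endothelial sum was 86532, 90768, 83210 and 86213 normalized reads in female hearts 1 to 4 and 90446, 92377, 89759 and 84151 in male hearts 1, 3, 4 and 5. It was lowest in female heart 3 and male heart 5 and the sexes overlapped, with 0 of the 11 markers called between sexes in limma. In bulk tissue, fewer cells of a type and less RNA per cell cannot be told apart. No share of all genes with as high an r is given beside these relations, so they are not shown to be particular to the members.

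Cavin4, a muscle gene, had the highest r with the endothelial sum (0.96, exact permutation p = 0.00067, adjusted 0.0134; rho = 0.905, exact permutation p = 0.00456). It was 0.94 without the 2 farthest hearts, 0.96 in females and 0.98 in males, and 0.95 to 0.98 when 1 heart was left out at a time. Popdc3 had r = 0.89 (exact permutation p = 0.00729, adjusted 0.0365; rho = 0.833, exact permutation p = 0.0154), and 0.83 without the 2 farthest hearts, 0.73 in females and 0.99 in males. Of the endothelial-type members, Cavin2 had r = 0.88 (exact permutation p = 0.0026, adjusted 0.0174; rho = 0.738, exact permutation p = 0.0458), 0.76 without the 2 farthest hearts, 0.77 in females and 0.91 in males. Cav1 had r = 0.86 (exact permutation p = 0.00238, adjusted 0.0174; rho = 0.762, exact permutation p = 0.0368), 0.73 without the 2 farthest hearts, 0.94 in females and 0.83 in males.

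Cav2 (r = 0.79, exact permutation p = 0.0275, adjusted 0.0917; rho = 0.833, exact permutation p = 0.0154) missed the threshold, and without the 2 farthest hearts it had r = 0.50. Cavin1 (r = 0.66, adjusted exact permutation p = 0.169) and Cavin3 (r = 0.47, adjusted exact permutation p = 0.388) did not pass either. Cav3 (r = -0.33, adjusted exact permutation p = 0.535), Popdc2 (-0.30, 0.55) and Bves (0.11, 0.872) had lower r with the endothelial sum. Their rho was 0.429 for Cavin1, 0.333 for Cavin3, -0.476 for Cav3, -0.12 for Popdc2 and 0.429 for Bves, with exact permutation p from 0.243 to 0.793. Within sexes, Bves had r = 0.83 in females and 0.49 in males, Cav3 -0.16 and -0.71, and Popdc2 -0.51 and 0.10. The cardiomyocyte sum ranged from 4489300 to 5079700 normalized reads. Of its 10 markers, 1 (Ryr2) was called higher in females in limma, beside 0.475% of all genes. No member passed after adjustment with this sum. Cavin4 had r = -0.77 (exact permutation p = 0.0237, adjusted 0.0917; rho = -0.786, exact permutation p = 0.0279), and -0.53 without the 2 farthest hearts.

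Sequencing depth also moved with several members. The 2 farthest hearts are here those farthest from the median of log2 total reads. Against the log2 of total reads, also looked at after the values were known and for 10 members, Popdc3 had r = 0.89 (exact permutation p = 0.00327, adjusted 0.0327; rho = 0.833, exact permutation p = 0.0154), with 0.92 without the 2 farthest hearts. Cavin4 had r = 0.74 (exact permutation p = 0.0373, adjusted 0.186; rho = 0.762, exact permutation p = 0.0368). Cav1 had the highest rho (0.881, exact permutation p = 0.00724; r = 0.63, exact permutation p = 0.0951, adjusted 0.289), and its r was 0.93 without the 2 farthest hearts. Cav2 had r = 0.59 (adjusted exact permutation p = 0.289; rho = 0.762, exact permutation p = 0.0368) and Cavin2 0.53 (adjusted exact permutation p = 0.289; rho = 0.571, exact permutation p = 0.151), and these were 0.89 and 0.86 without the 2 farthest hearts. The endothelial sum had r = 0.74 (exact permutation p = 0.0393, adjusted 0.0786 over 2 sums; rho = 0.738, exact permutation p = 0.0458). After a line on log2 total reads was taken out of both, r with the endothelial sum was 0.92 for Cavin4, 0.85 for Cavin2, 0.76 for Cav1 and 0.74 for Popdc3. With the cardiomyocyte sum, r went in the same way from -0.77 to -0.90 for Cavin4. For Popdc3 it went from -0.65 (adjusted exact permutation p = 0.169, rho = -0.786) to -0.96. The other members then ran from -0.69 for Cavin2 to 0.43 for Popdc2. The part of depth, RNA quality or cell content in these relations was not tested further. For depth, too, no share of all genes with as high an r is given.

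**Figure D5:**
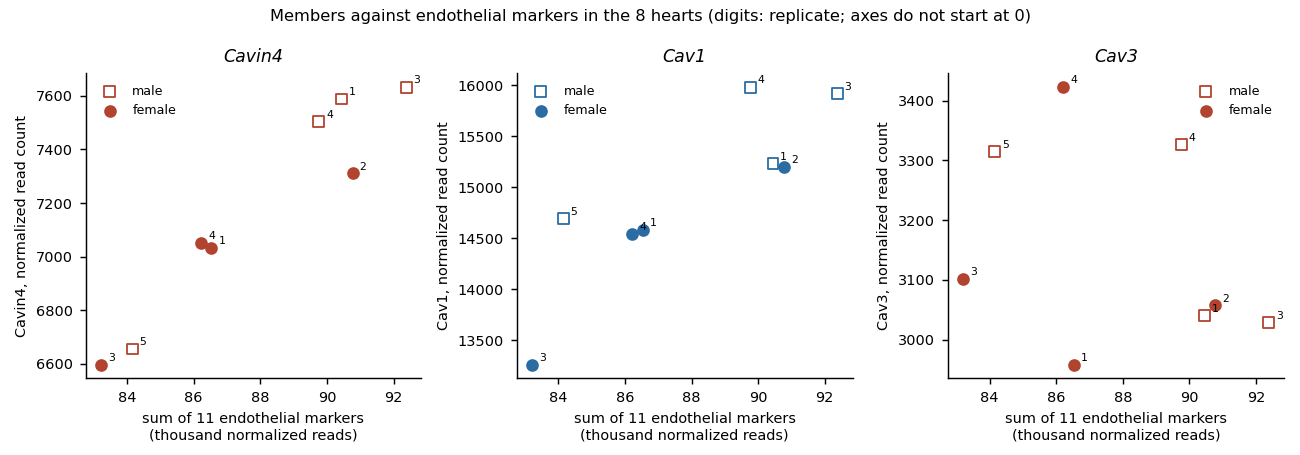
Normalized read count of Cavin4, Cav1 and Cav3 (vertical axes, not from 0) against the sum of 11 endothelial markers in normalized reads (horizontal axes, scaled as labelled, not from 0), 1 point per heart with its replicate number, filled circles for females and open squares for males. Cavin4 (r = 0.96) and Cav1 (r = 0.86) rise with the sum, with female heart 3 lowest in both panels, and Cav3 (r = -0.33) shows no such order.

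For 5 members the genes most like them over the 8 hearts were listed by Pearson's r of log2(value + 1), among 11936 genes with a mean of at least 100. With so few hearts and so many genes, high values of r arise for many genes, and these lists are descriptions. Cavin4 was most like Rflnb (r = 0.98), Tlr3, Slc15a3, Arhgap4 and Aggf1, and Popdc3 held place 29 on its list. Cavin2 was most like Itpkb (r = 0.98), Fli1, an ETS factor of endothelial and blood cells, Tspan2, Papola and Nppb, the gene of brain natriuretic peptide.
Cav1 was most like Gimap9 (r = 0.98), Mocos, Fam57a, Cd300a and Cd276, with Cav2 in place 65 and Cavin4 in place 169. Cav3 was most like Rae1 (r = 0.96), Nfx1, Bcar1, Eif4a1 and Tmem2, and its best placed fellow member, Cavin3, was in place 3537. Bves was most like Ccnd2 (r = 0.97), Slc25a22, Ptger1, Erbb3 and Lpp, with Popdc2 in place 254.

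Genes of the caveola coat and neck and of its partners were read from lists that the members do not belong to. These lists were chosen with earlier results of these data known, so their counts beside the shares of all genes are descriptions only. Of 9 genes of the coat and neck, 0 rose and 0 fell in limma (3 at an unadjusted p under 0.05; DESeq2 passed Ehd4), with a median log2 difference of -0.03. The log2 difference was negative for 7 of the 9, beside 49.1% of all genes. Background shares were 0.475% of genes called higher and 0.687% called lower in females, and 16% of all genes at an unadjusted limma p under 0.05. Ehd4, an ATPase of the membrane neck family, read 36148, 36300, 33673 and 33565 in females and 32364, 31290, 29535 and 32558 in males, with no overlap (log2 difference 0.15, SE 0.04, limma adjusted p = 0.0985). Flot1, which marks membrane rafts, was at 9300 ± 257 against 9993 ± 482 (SD, n = 4 each; limma adjusted p = 0.212), also without overlap but lower in females. Pacsin2, a membrane-bending protein of caveola necks, was at 14318 ± 109 against 14971 ± 558 (limma adjusted p = 0.355).

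Of 12 genes for partners of Cav3 at the muscle membrane, 0 rose and 0 fell in limma, with a median log2 difference of -0.01. At an unadjusted limma p under 0.05, 5 of the 12 passed, beside 16% of all genes. Trim72, a membrane repair protein, was at 22942 ± 839 in female and 24704 ± 1367 in male hearts (SD, n = 4 each; limma adjusted p = 0.246). Jph2, which ties transverse tubules to the sarcoplasmic reticulum, was at 42033 ± 1610 and 39368 ± 241 without overlap (limma adjusted p = 0.184). Dag1, the dystroglycan gene, was at 31544 ± 689 and 29994 ± 1211 (limma adjusted p = 0.324).

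Of 13 genes for cyclic AMP signalling and Popeye partners, 2 rose in females and 0 fell in limma, beside 0.475% and 0.687% of all genes. At an unadjusted limma p under 0.05, 7 of the 13 passed, beside 16% of all genes, and the median log2 difference was 0.05. Because this list was chosen with earlier results of these data known, these counts cannot show an excess over all genes. The 2 that rose were adenylyl cyclases, the enzymes that make the cyclic AMP bound by Popeye proteins. Adcy5 read 8112, 8586, 8378 and 8623 in females and 7351, 7362, 6549 and 7607 in males, every female above every male. Its log2 difference was 0.22 (SE 0.04, limma adjusted p = 0.0337). Adcy6 read 20920, 20110, 21937 and 21917 in females and 18036, 17889, 18102 and 19659 in males, also without overlap, with a log2 difference of 0.20 (SE 0.04, limma adjusted p = 0.0337).
Leaving out 1 heart at a time ended each call in 6 of 8 cases, and so did adding total reads as a covariate (limma adjusted p = 0.0705 for Adcy5 and 0.0586 for Adcy6). The adjusted p in limma then ran from 0.0113 to 0.117 for Adcy5, which kept its call without female heart 1 or male heart 5, and from 0.00728 to 0.0967 for Adcy6, which kept it without female heart 2 or male heart 5. Prkar1a, the regulatory subunit of protein kinase A, was at 30991 ± 938 and 31644 ± 643 (SD, n = 4 each; limma adjusted p = 0.697), and Xirp1, which encodes Xin, at 17313 ± 409 and 17339 ± 1718 (limma adjusted p = 0.99).

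Of 9 genes for endothelial proteins carried in caveolae, 0 rose and 0 fell in limma, and DESeq2 passed Aqp1. At an unadjusted limma p under 0.05, 3 of the 9 passed, beside 16% of all genes. The log2 difference was negative for 8 of 9, with a median of -0.04. Aqp1, a water channel, read 23020, 19874, 22860 and 21657 in females and 24087, 24799, 24200 and 28548 in males, with no overlap (log2 difference -0.22, SE 0.06, limma adjusted p = 0.136). Cd36, a fatty acid transporter, was at 100940 ± 3850 and 101670 ± 4973 (SD, n = 4 each; limma adjusted p = 0.936). Kdr, the receptor of vascular growth factor that is also among the endothelial markers, was at 14870 ± 1093 and 15278 ± 2107 (limma adjusted p = 0.926).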

How the data were processed

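RNA from 8 whole mouse hearts was sequenced. The deposited table holds, for 17911 genes, a normalized signal per heart (reads divided by 1 size factor), recognised from the values themselves. It also holds the authors' log2 fold change, p-value and adjusted p-value. The build is mm10, per the submitters' processing notes. Not given in the sources used here: aligner, counter, annotation, strand setting, filter and test. For the members, the deposited log2 fold changes and adjusted p-values nearly equal those of DESeq2 on the recovered reads. No sample column was left unused (0). In all hearts 100% of values came out as whole reads (tolerance 0.001 reads), which gave the depths.

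Values were tested as log2(value + 1) with limma 3.58.1 (trend and robust, R 4.3.3), female minus male, with Benjamini-Hochberg adjustment over all genes. A value of at least 1 in at least 4 hearts was required, which removed 0 genes. Count tests on the recovered reads (edgeR 4.0.16, which called 214 genes, and DESeq2 1.42.0), limma-voom, pseudocounts, filters, left-out hearts, replicate blocks, a depth covariate and the 5 deepest hearts were alternatives. Ratios and correlations used exact permutation tests (scipy 1.17.1). The fit was tested on simulated data. Positions and exon lengths are from GENCODE M21 (GRCm38), matched for 17864 genes. Named genes are all members; in other lists, those called plus up to 3 with the highest level per length; the 5 most similar genes for 5 members; and the pairs with the highest and lowest r within and between types. Members and lists were chosen with earlier results of these data known.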

Additional observations from a re-analysis of the deposited data

Results flagged for a closer look

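In groups of 4 hearts, the highest or lowest heart was compared with the others by Dixon's ratio (gap to the nearest heart over the whole range, against the 95% critical value). Of 64 groups tested, over the members, the named genes of the other lists, the 2 ratios and the 7 marker sums, 5 passed; chance passes about 1 in 20. Cavin4 in male hearts had its lowest heart, male heart 5, at 6655 (ratio 0.87), with the other 3 males at 7506 to 7633. Adcy6 in male hearts had its highest heart, also male heart 5, at 19659 (ratio 0.879), with the others at 17889 to 18102. Male heart 5 had 55.0 M recovered reads, the fewest of the male hearts, and its endothelial marker sum of 84151 was the lowest of the males. The part of these in either value was not tested. Pacsin2 had its highest female heart, heart 3, at 14480 (ratio 0.866). Aqp1 had its highest male heart, heart 5, at 28548 (ratio 0.84). The lung marker sum was highest in male heart 3, at 1319 (ratio 0.948).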

How the results depend on the processing

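Over 21 alternatives per gene, 0 of the 10 members passed the threshold, and Cavin4, Popdc2, Popdc3, Bves, Cav1, Cav2 and Cavin2 kept their direction. Leaving out 1 heart moved some of these log2 differences by over 1.5 times: Cavin4 to -0.04 without female heart 3 and -0.12 without male heart 5, Popdc3 to -0.15 without male heart 5, Cav1 to -0.06 without female heart 3, Cavin2 to -0.03, -0.02 and -0.09 without female heart 3, male heart 3 and male heart 5, and Popdc2 to 0.02, 0.05 and 0.02 without female heart 3, male heart 3 and male heart 4. With total reads as a covariate, the log2 difference was -0.0228 for Cavin4, -0.0290 for Popdc3 and -0.0276 for Cavin2. A replicate block by title number gave -0.137 for Cavin4, -0.162 for Popdc3 and -0.103 for Cavin2. A block by library code number gave 0.0213 for Popdc2 and 0.0675 for Bves. Cav3 (log2 difference -0.02) changed sign without female heart 1 (0.00685), male heart 4 (0.00217) or male heart 5 (0.00045). Its range without 1 heart was -0.0633 to 0.00685. Cavin1 changed sign without female heart 3 (0.0215) or male heart 4 (0.00432; range without 1 heart -0.0314 to 0.0215), with total reads as a covariate (0.00917) and in the 5 deepest hearts (0.00781). Cavin3 changed sign without female heart 3 (0.0107) or male heart 4 (0.0288; range without 1 heart -0.0697 to 0.0288) and with total reads as a covariate (0.00616). The replicate block by title number gave 0.0118 for Cav3, and the block by library code number gave 0.0135 for Cav3 and 0.0274 for Cavin3. Deviations from the sex means of hearts sharing a title number correlated at 0.166, -0.05 and -0.11, and those sharing a code number at 0.166, -0.05 and 0.124. These few untested values cannot decide whether the numbers pair the hearts. Genes called in all numbered 208, against 145 with the title block, 26 with the code block, 690 in DESeq2 and 77 to 516 without 1 heart. The Cav3 to Cav1 log2 ratio was 0.0457 to 0.128 without 1 heart and 0.166 with the title block. The Cavin4 to Cavin2 log2 ratio became 0.0081 without male heart 1 (range without 1 heart -0.0311 to 0.0081). Pairs of members called fell from 5 to 0 with sex-centred values and to 0 to 4 without 1 heart. Of the other named genes, Xirp1 (0.0027) was -0.00266, -0.00239 and -0.00541 in edgeR (TMM, RLE, upper quartile), -0.00238 in DESeq2, -0.0464 with the title block, -0.0324 in the 5 deepest hearts and -0.0474 to 0.0656 without 1 heart. With total reads as a covariate Cd36 was 0.00884 and Kdr 0.105, and without 1 heart they were -0.0355 to 0.0137 and -0.135 to 0.0241. Adcy5 lost its call in 10 of 21 alternatives and Adcy6 in 8, neither changing sign. The cause of these changes was not tested. With 4 hearts per sex, the width of the printed 95% intervals limits what these data can show.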
